A study of Bos taurus with 13 samples.

Results

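The mRNAs of 36 genes that cells use to copy and divide their DNA were followed in the blood of cows at the upper and lower ends of milk cortisol. The genes were chosen by symbol, and 35 of them were found among the 16095 named genes of the count tables, while *MCM4* was not analysed here. Of the 35 genes, 8 act in DNA replication (*MCM2*, *MCM3*, *MCM5*, *MCM6*, *MCM7*, *PCNA*, *TYMS* and *RRM2*), 26 act mainly in mitosis or in its preparation, and *CHEK1* encodes a checkpoint kinase that responds to stalled replication. Blood was drawn from the tail vein of 13 untreated, clinically healthy, lactating cows of the Italian Red Pied breed (Italian Simmental in the methods of the study), 7 in the high group (replicates 1 to 7) and 6 in the low group (replicates 8 to 13). Their ages are not given in the sources used here. The groups were set by the cortisol in milk from the same day, so they are the tails of a natural distribution and not the arms of a treatment. The methods of the study name more cows in each group than the 7 and 6 with counts here. RNA came from PAXgene tubes, which fix RNA at sampling, and haemoglobin mRNA was not removed.

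Before a cell divides, rings of MCM proteins are loaded on DNA and later open it as the replicative helicase, PCNA clamps the polymerases to the DNA, and TYMS and RRM2 supply deoxynucleotides. Genes for mitosis are switched on later in the cycle, with FOXM1 as one of their activators. They encode the cyclins CCNA2, CCNB1 and CCNB2 with their kinase CDK1, the mitotic kinases PLK1, AURKA, AURKB, BUB1, BUB1B and TTK, motor proteins of the spindle, and UBE2C and CDC20, with which the anaphase-promoting complex marks cyclins for breakdown. Most blood leukocytes, neutrophils above all, have left the cycle, so mRNAs of this kind in blood are commonly attributed to a small number of activated lymphocytes, plasmablasts and immature cells.

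The reads counted per cow on genes with a name numbered 11045599 to 28124575, and the members had between 30 and 6020 counts in each cow. All 35 members passed the filter on low counts, so none was lost to it. Levels are given as CPM (the count of a gene relative to the size of its library, after TMM scaling), and levels of different genes are compared only as RPKM, which divides CPM by the exon length in kilobases. No exon of a member overlapped an exon of another gene in the annotation of the count tables. In whole blood, fewer dividing cells and less of these mRNAs per dividing cell cannot be told apart.

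The most abundant members per length, *MCM7*, *PCNA* and *MCM6*, were genes of replication, followed by the mitotic *UBE2C*. The mean RPKM over the 13 cows was over 10 for all 8 replication genes and for 6 of 26 mitotic genes, and under 2 for 4 members, all of them mitotic. *MCM7*, a subunit of the helicase on chromosome 25 (UMD3.1, 36885892 to 36893315), led with 95.6 RPKM ± 19.1 (SD, n = 13). It had 164 to 252 CPM (median 233) in the high group and 195 to 355 CPM (median 225) in the low group. The highest 2 values of *MCM7* belonged to replicates 13 and 12 of the low group, and the other 4 low cows lay within the range of the high group.

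*PCNA*, the sliding clamp, on chromosome 13 (47788530 to 47794602), followed with 78.9 RPKM ± 15.2 (SD, n = 13). The high cows had 117 to 176 CPM (median 155), and the low cows 129 to 222 CPM (median 167). *PCNA* was the member with the narrowest spread, 1.90-fold from the lowest to the highest cow. *MCM6*, another helicase subunit, on chromosome 2 (61821905 to 61852264), had 34.9 RPKM ± 8.93 (SD, n = 13). It had 59.2 to 82.9 CPM (median 76.0) in the high group and 63.9 to 138 CPM (median 80.6) in the low group, with replicate 13 far above the others.

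*UBE2C*, the ubiquitin-conjugating enzyme of the anaphase-promoting complex, was the most abundant mitotic member, with 33.0 RPKM ± 16.03 (SD, n = 13). It lies on chromosome 13 (75306757 to 75310188) and had 11.1 to 29.0 CPM (median 24.9) in the high group and 14.7 to 57.9 CPM (median 25.1) in the low group. Its group medians were almost equal, and replicates 12 (43.9 CPM) and 13 lay above all other cows. At the other end, *CENPE*, a kinetochore motor on chromosome 6 (22959366 to 23041858), had 0.387 RPKM ± 0.149 (SD, n = 13), and *ASPM*, a spindle pole protein on chromosome 16 (77923530 to 77988157), had 0.682 RPKM ± 0.284 (SD, n = 13). *CENPE* had 2.03 to 6.57 CPM (median 3.41) in high and 2.48 to 4.87 CPM (median 3.82) in low cows, and its highest cow was replicate 1 of the high group. *ASPM* had 4.07 to 8.94 CPM (median 6.49) in high and 4.73 to 14.9 CPM (median 7.14) in low cows.

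*MKI67*, the gene of the proliferation marker Ki-67, lies on chromosome 26 (47851223 to 47879459). It had 34.6 to 83.6 CPM (median 51.1) in the high group and 44.1 to 137 CPM (median 72.7) in the low group. The 2 highest cows were again replicates 13 and 12, and the third was replicate 1 of the high group. *TOP2A*, the topoisomerase that untangles chromosomes before they part, on chromosome 19 (41281652 to 41307194), had 16.6 to 31.1 CPM (median 20.1) in the high group and 16.1 to 37.1 CPM (median 24.2) in the low group. For *TOP2A* all 7 high cows lay within the range of the low group.

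**Figure D1:**
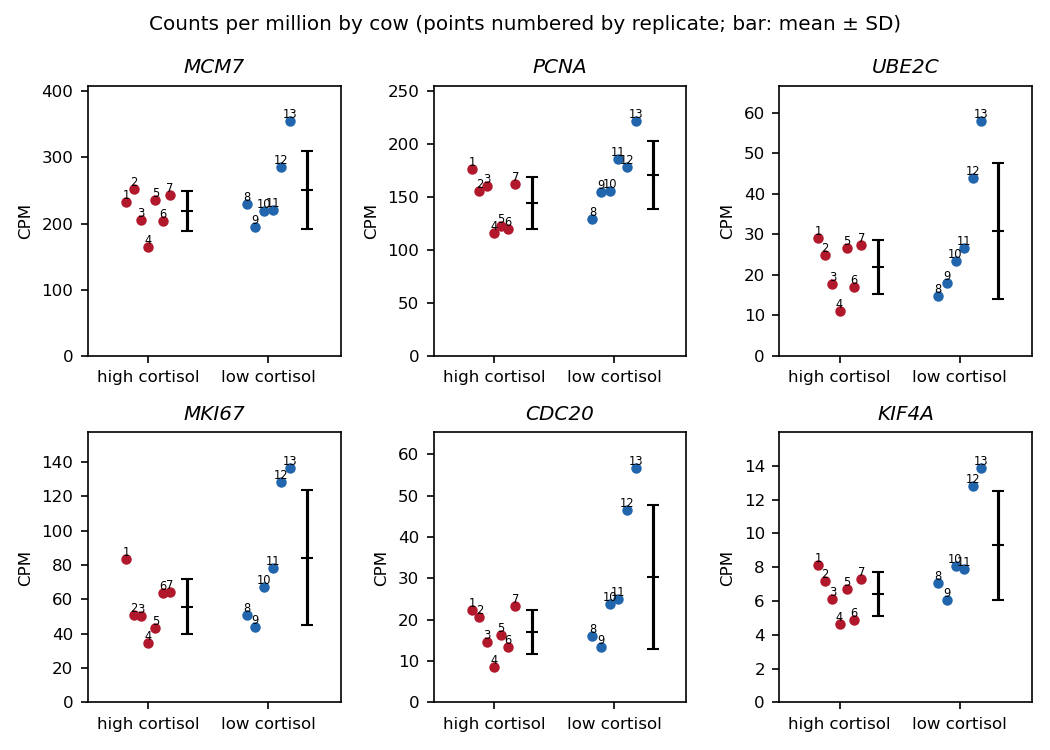
CPM (linear axis from 0) of 6 members in each of the 13 cows, with points numbered by replicate and bars for the mean and SD of the 7 high and the 6 low cows. Replicates 12 and 13 of the low group are the highest of all 13 cows in 5 panels, while for *PCNA* replicate 11 (186 CPM) lies between them, and the other 4 low cows mostly share the range of the high group.

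The same cows were high for most members. Summed over the 35 members, CPM ran from 877 in replicate 4 of the high group to 2061 in replicate 13 of the low group, a 2.35-fold range, and replicate 12 followed with 1733. The next cow, replicate 1 of the high group, had 1385. Replicates 12 and 13 were the 2 highest cows for 28 of the 35 members, 7 of 8 in replication and 21 of 26 in mitosis, and both lay above all 7 high cows for 29. Replicate 13 was the highest cow for 25 members, replicate 12 for 5 and replicate 1 for 4. The lowest cow was replicate 4 for 14 members and replicate 5 for 10, both in the high group. *MCM7* and *PCNA* together held between 26.8% and 36.5% of the summed CPM of the members in a cow.

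**Figure D2:**
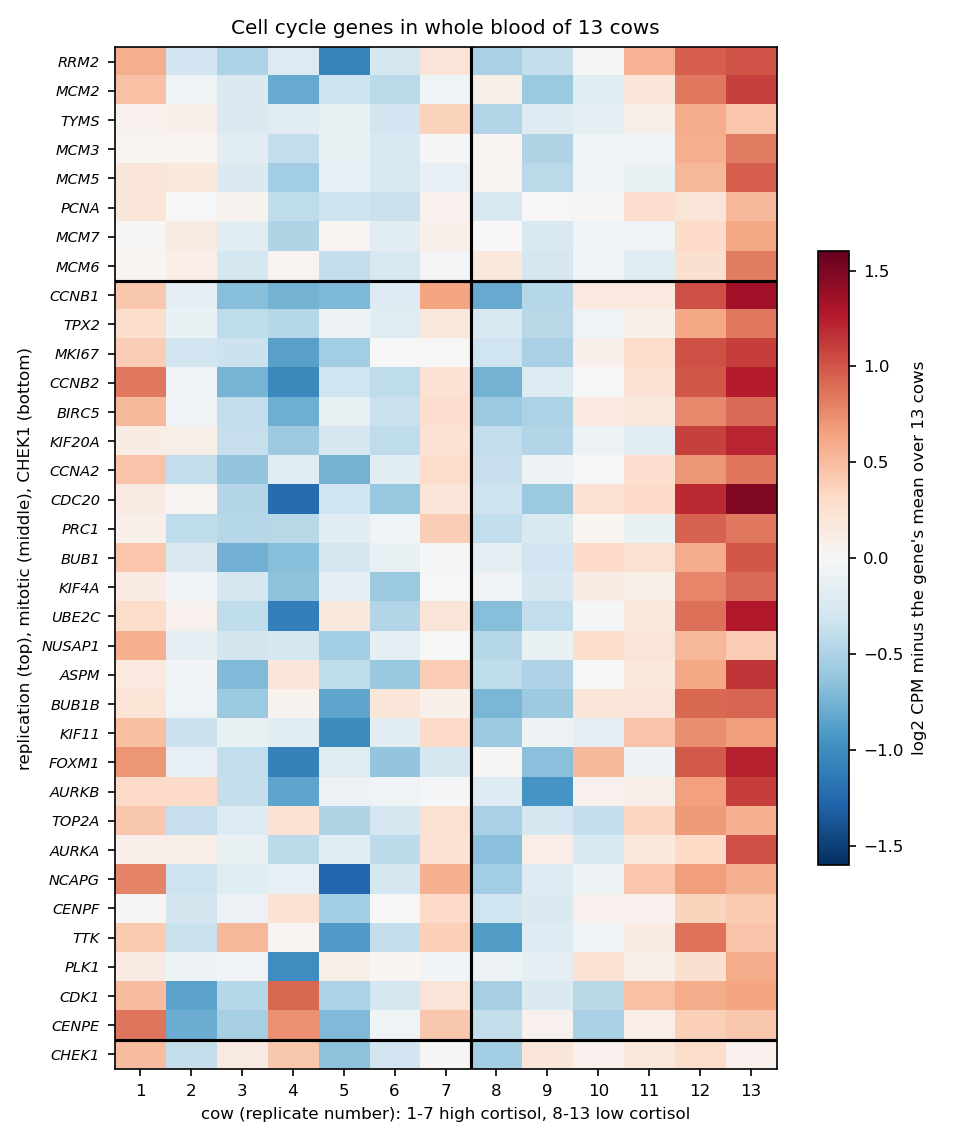
Log2 CPM of each of the 35 members in each of the 13 cows, minus the mean of the gene over the cows (red above the mean, blue below), with replication genes above the first line, mitotic genes below it and *CHEK1* in the last line. Replicates 12 and 13 of the low group are red in nearly every line, and replicate 4 of the high group is red for *CDK1*, *CENPE* and *CHEK1* and blue for most other members.

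A score for each cow was taken as the mean over a list of log2 CPM (prior count 2), centred on the mean of each gene over the cows. For replication it spanned -0.37 to 0.20 among high cows and -0.32 to 0.79 among low cows, and for mitosis -0.43 to 0.38 and -0.44 to 0.89. The lowest cows of both groups were thus alike, and the low group was the wider one in both scores, with an SD of 0.42 against 0.22 in replication and of 0.55 against 0.32 in mitosis. The mitotic genes spread further than the replication genes. The ratio of the highest to the lowest cow had a median of 3.46 over the 26 mitotic members and of 2.41 over the 8 replication members, against 2.11 over all genes tested, and *CDC20* had the widest, 6.63.

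Replication and mitotic scores moved together over the cows, with a Pearson correlation of 0.95 and a Spearman correlation of 0.87 over 13 cows, given as a description without a test because both are scores over chosen genes of the same libraries. Within the high group the Pearson correlation was 0.91 (n = 7) and within the low group 0.96 (n = 6). Without replicates 12 and 13, the cows farthest from the median, it was 0.86, so the relation was not carried by these cows alone. The difference between the scores, mitotic minus replication, lay between -0.33 in replicate 8 and 0.20 in replicate 12 of the low group. Its group means were -0.02 ± 0.15 (SD, n = 7) in the high group and 0.02 ± 0.18 (SD, n = 6) in the low group, a difference far within the spread between cows.

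**Figure D3:**
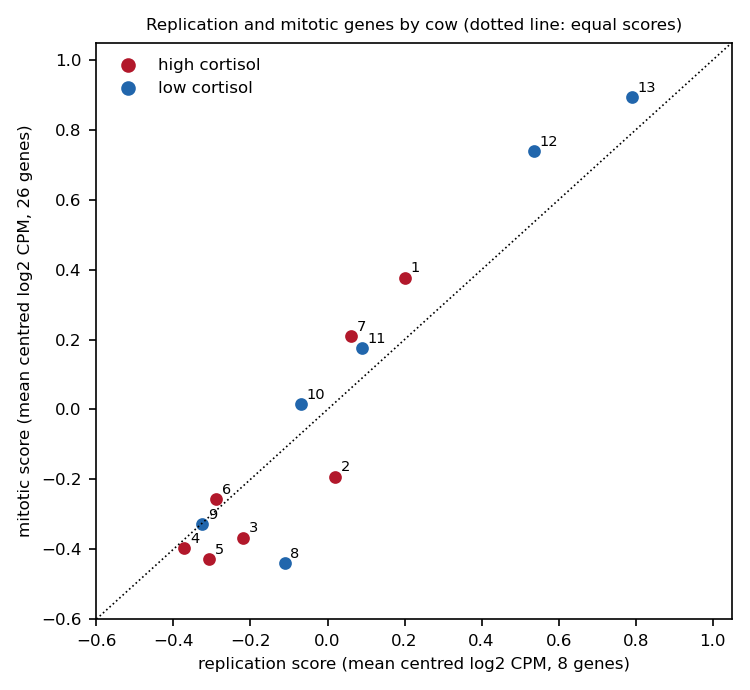
Mitotic score (26 genes) against replication score (8 genes) of each of the 13 cows, both as mean centred log2 CPM, with points numbered by replicate and coloured by group, and a dotted line where both scores are equal. The cows lie along the line, with replicates 12 and 13 of the low group at the upper end and replicate 8 of the low group farthest below it.

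Among single members, co-variation was close within both roles and between them. The median Pearson correlation of log2 CPM over the 13 cows was 0.73 in the 28 pairs within replication, 0.75 in the 325 pairs within mitosis and 0.75 in the 208 pairs between them. Over all pairs of the 11033 genes tested it was -0.0023. Of all 595 pairs of members, 83.0% had a correlation over 0.5, and of all pairs of genes tested 13.3% did. These pairs share libraries and are not independent. The closest pairs were *MCM3* with *MCM5* (0.98), neighbouring subunits of the helicase, and *CDC20* with *KIF4A* (0.97), a mitotic motor that binds chromosomes.

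Each member was also set against the mean of the other 34. *CCNB1*, the cyclin that starts mitosis, followed them most closely, with a Pearson correlation of 0.97, ahead of *TPX2* (0.95), an activator of Aurora A on the spindle, and *MKI67* (0.94). *RRM2*, a subunit of ribonucleotide reductase, was the replication gene that followed them best (0.94). The loosest were *CHEK1* (0.42), *CENPE* (0.50), *CDK1* (0.57) and *PLK1* (0.635). The abundant *MCM7* had 0.79 and *PCNA* 0.84, in the lower part of that order.

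A further 3 pairs were chosen by role, with earlier results known, and tested over the cows with 100000 permutations and Benjamini-Hochberg adjustment over the 3. *MKI67* and *MCM2* had a Pearson correlation of 0.92 (permutation p = 2e-05, adjusted p = 6e-05) and a Spearman correlation of 0.86 (permutation p = 3.6e-04, adjusted p = 7.8e-04), and the Pearson value was 0.79 without replicates 12 and 13. *MKI67* and *PCNA* had 0.79 (permutation p = 0.00141, adjusted p = 0.00211) and a Spearman correlation of 0.84 (permutation p = 5.2e-04, adjusted p = 7.8e-04), with 0.67 without both cows. *MKI67* and *TOP2A*, both mitotic, had 0.70 (permutation p = 0.00703, adjusted p = 0.00703) and a Spearman correlation of 0.64 (permutation p = 0.0212, adjusted p = 0.0212). For the last pair the Pearson value was 0.40 without replicates 12 and 13. It was 0.35 within the high group and 0.90 within the low group, which holds both cows. Both lower values include replicate 4 of the high group, where *MKI67* was at its lowest (34.6 CPM). *TOP2A* had 27.2 CPM in that cow, above the high median of 20.1 CPM. The part of single cows in this relation was not tested further.

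High and low groups were then compared gene by gene with edgeR's quasi-likelihood test over all 11033 genes that passed the filter. Log2 fold changes are high minus low, so a negative one means that the high cows had less. None of the 35 members passed an adjusted p of 0.05 (adjusted p = 0.998 for each), where 0 genes (0%) passed among all genes tested. DESeq2 called 1 gene, which was no member. At an unadjusted p below 0.05 there were 4 members, all with lower values in the high group, which is 11.4% of the members where 231 of all genes tested (2.09%) reached it in either direction and 1.16% with lower values. The log2 fold change was negative for 34 of 35 members at any p, against 46.7% of all genes tested, and *CENPE* (0.08) was the exception. The median over the members was -0.33, beside 0.01 over all genes tested, and it was -0.30 over the 8 replication genes and -0.36 over the 26 mitotic genes. For no member were the groups without overlap in CPM, as for 0.0272% of all genes tested. Since the members move together over the cows, they do not count as 35 separate observations.

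The 4 members at an unadjusted p below 0.05 were all mitotic. *CDC20*, which starts anaphase together with the anaphase-promoting complex, lies on chromosome 3 (103238486 to 103242373) and had 8.56 to 23.2 CPM (median 16.3) in the high group and 13.4 to 56.8 CPM (median 24.4) in the low group. By edgeR's test it differed by -0.82 on the log2 scale (standard error 0.32, unadjusted p 0.0188), with each of the 7 high cows under the low median. *KIF4A*, on chromosome X (85321685 to 85449499), had 4.66 to 8.11 CPM (median 6.71) in the high group and 6.08 to 13.9 CPM (median 7.99) in the low group. By edgeR's test it differed by -0.53 (standard error 0.22, unadjusted p 0.0270), with 6 of 7 high cows under the low median.

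*BUB1*, a kinase of the spindle checkpoint on chromosome 11 (1559190 to 1592162), had 14.9 to 34.6 CPM (median 21.6) in the high group and 20.7 to 50.9 CPM (median 30.9) in the low group. By edgeR's test it differed by -0.53 (standard error 0.22, unadjusted p 0.0278), again with 6 of 7 high cows under the low median. *MKI67* differed by -0.59 (standard error 0.26, unadjusted p 0.0368 by edgeR's test), with 6 of 7 under it as well. When log2 CPM was permuted over the 1716 ways to split the cows, the exact two-sided permutation p was 0.0892 for *CDC20*, 0.0507 for *KIF4A*, 0.0629 for *BUB1* and 0.120 for *MKI67*, none of them below 0.05, where the smallest p that this design allows is 5.8e-04.

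None of the 4 most abundant members had an unadjusted p below 0.05. Their log2 fold changes were -0.19 (standard error 0.14) for *MCM7*, -0.24 (0.14) for *PCNA*, -0.27 (0.16) for *MCM6* and -0.48 (0.30) for *UBE2C*, with unadjusted p between 0.0956 and 0.186 by edgeR's test. *TOP2A* had -0.17 (standard error 0.22, unadjusted p 0.451), *ASPM* -0.38 (standard error 0.28, unadjusted p 0.188) and *CENPE* 0.08 (standard error 0.31, unadjusted p 0.791), all by the same test. The exact permutation test gave two-sided p of 0.267 for *MCM7*, 0.120 for *PCNA*, 0.203 for *MCM6*, 0.295 for *UBE2C*, 0.586 for *TOP2A*, 0.298 for *ASPM* and 0.935 for *CENPE*.

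The size of the difference depended on single cows. Without replicate 12 of the low group the median log2 fold change of the members was -0.25, with 31 of 35 negative and *CDC20* at -0.66, and without replicate 13 it was -0.17, with 33 of 35 negative and *CDC20* at -0.54. Without both, a comparison chosen after the data were seen, 14 of 35 members had a negative log2 fold change, where 43.4% of the genes then tested did. The median over the members became 0.05, beside 0.02 over all genes, and none of the 35 had an unadjusted p below 0.05 by edgeR's test, while 239 of 11220 genes did. *CDC20* then had a log2 fold change of -0.20, *BUB1* of -0.23, *KIF4A* of -0.18 and *MKI67* of -0.11. These were the highest 2 cows for the members and both belong to the low group, so leaving them out could only move the difference towards higher values in the high group, and no matching removal of high cows was made. The number of members at an unadjusted p below 0.05 was also 0 when either of them alone was left out, where 2.17% of all genes reached it without replicate 12 and 1.77% without replicate 13. Among the high cows it was 2 without replicate 3 (1.90% of all genes) or 4 (1.95%) and 10 without replicate 1 (2.47%). Among the low cows it was 10 without replicate 8 (1.78%) and 11 without replicate 9 (3.1%). It was also 0, with 1.09% of all genes, with a covariate for the share of counts from haemoglobin genes (log2). The genes counted for this share were *HBB*, *HBG*, *HBM* and *HBQ1*. In that fit the median log2 fold change of the members was -0.16, with 32 of 35 negative and *MCM6* at -0.02. The haemoglobin share was 0.0300% in replicate 12 and 0.0114% in replicate 13, the lowest of all cows, and reached 0.815% in replicate 7 of the high group. Of the 9 erythroid markers tested, all 9 had higher values in the high group (median log2 fold change 0.51, 4 at an unadjusted p below 0.05 by edgeR's test and 0 at an adjusted p of 0.05). The summed level of the erythroid list was 435 to 8043 CPM in the high group and 168 to 616 CPM in the low group. All 10 cytotoxic and NK markers were also higher (median 0.16, none at an unadjusted p below 0.05), while 8 of 9 platelet markers (median -0.28) and 7 of 8 plasma cell markers (median -0.15) were lower, each with 1 at an unadjusted p below 0.05. Higher values were also seen in 8 of 9 B cell (median 0.14) and 7 of 9 monocyte markers (0.19). All 3 eosinophil (0.42) and 3 of 4 progenitor markers (0.19) were higher too. Lower values were found in 8 of 10 T cell (-0.06), 4 of 7 neutrophil (-0.16) and 2 of 4 neutrophil precursor markers (-0.07). By edgeR's test 2 neutrophil markers and 1 monocyte marker had an unadjusted p below 0.05 with lower values in the high group. With higher values, 1 B cell and 1 progenitor marker had an unadjusted p below 0.05 by the same test. Over all genes tested 46.7% were lower and 2.09% had such a p. The part of red cell RNA in the difference was not tested beyond the fit with the covariate, and that of the other cell types was not tested.

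**Figure D4:**
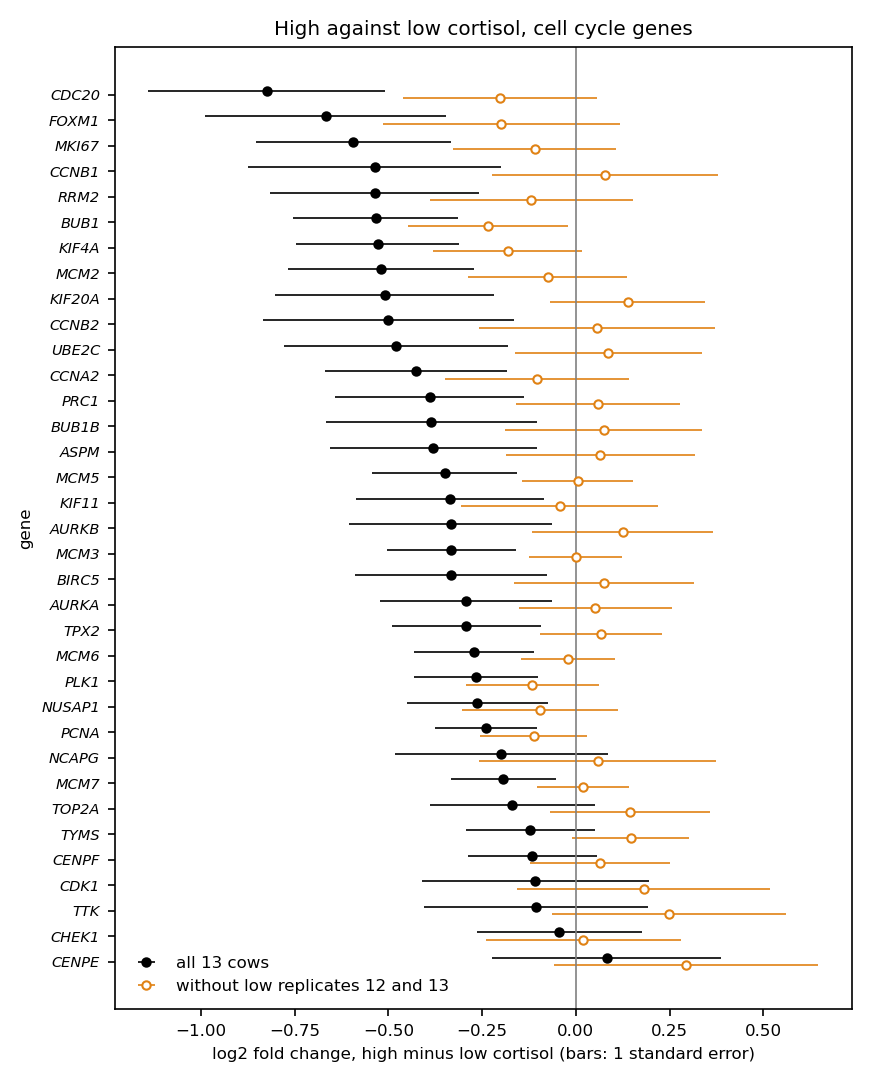
Log2 fold change of each of the 35 members, high minus low group, with bars of 1 standard error, over all 13 cows (filled) and without replicates 12 and 13 of the low group (open). Over all cows 34 members have a negative value, and without both cows 14 do, with most bars reaching over 0.

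Other genes of the cell cycle, from lists that hold none of the members, were looked up in the same fit. Of 20 further replication genes, such as licensing factors, all were tested, and 15 had a negative log2 fold change (median -0.19). Of 30 further mitotic genes 26 were tested, and 19 had a negative one (median -0.15). The 23 genes tested of a list of 25 around G1 cyclins, E2F factors and the retinoblastoma family had 12 negative and 11 positive values (median -0.01), and the 11 tested of 12 inhibitors and genes of quiescence, such as *CDKN1A* and *BTG1*, had 5 negative and 6 positive (median 0.03). Over all genes tested 46.7% were negative. In all 4 lists 0 genes passed an adjusted p of 0.05 by edgeR's test, and 3 of 80 (3.75%) had an unadjusted p below 0.05, all with lower values in the high group, near the 2.09% of all genes tested.

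These were *NCAPH*, *ORC1* and *E2F2*. *NCAPH*, a condensin subunit, differed by -0.56 on the log2 scale (standard error 0.18, unadjusted p 0.00543 by edgeR's test), and by -0.38 (unadjusted p 0.0511) without replicates 12 and 13, with 18.2 CPM ± 4.07 (SD) in the 7 high and 27.0 CPM ± 6.42 (SD) in the 6 low cows. *ORC1*, the subunit of the origin recognition complex that rises in cycling cells, had -0.82 (standard error 0.29, unadjusted p 0.0123 by edgeR's test), -0.48 without replicate 13 and -0.19 without both replicates 12 and 13. *E2F2*, a transcription factor at the entry into S phase, had -0.36 (standard error 0.17, unadjusted p 0.0479 by edgeR's test), and its p was above 0.05 without any single one of replicates 3, 4, 6 and 7 of the high group and 8, 10, 11 and 13 of the low group (up to 0.139). By the same test *E2F2* had -0.43 without replicate 12 (unadjusted p 0.0224) and -0.45 without both replicates 12 and 13 (unadjusted p 0.0317). With the haemoglobin covariate *E2F2* differed by -0.16 (unadjusted p 0.450), *ORC1* by -0.63 (unadjusted p 0.134) and *NCAPH* by -0.51 (unadjusted p 0.0481), all by edgeR's test. The unadjusted p by limma-voom was 0.0624 for *ORC1*, 0.0374 for *E2F2* and 0.00605 for *NCAPH*. *ORC1* followed the score of the 35 members over the cows with a Pearson correlation of 0.94 and *NCAPH* with 0.72, while *E2F2* had 0.15. As scores, the further replication genes followed the members with 0.97 and the further mitotic genes with 0.92, the list around G1 with 0.49 and the inhibitors with -0.46 (n = 13 cows, same libraries).

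Among all other genes with a mean of at least 1 CPM, the 6 closest to the mitotic score over the 13 cows were *MDH1* (Pearson correlation 0.98), *MYBL2* (0.97), *NCAPG2* (0.96), *FANCI* (0.95), *SLC29A1* (0.95) and *CDCA3* (0.94). The 6 closest to the replication score were *NCAPG2* (0.97), *MYBL2* (0.96), *KIF22* (0.96), *SLC29A1* (0.95), *NASP* (0.95) and *CDCA3* (0.95). Most of these are known genes of dividing cells: MYBL2 is a transcription factor of the late cycle, NCAPG2 a condensin subunit, FANCI a protein of DNA repair, KIF22 a chromosome-binding motor, and NASP a histone chaperone. *MDH1*, for cytosolic malate dehydrogenase, and *SLC29A1*, for an equilibrative nucleoside transporter, encode metabolic and transport proteins. They were picked as the extremes of all genes compared, so the values describe these cows only.

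Markers of the cells that blood can hold were compared with the score of the 35 members, as correlations over 13 cows that share libraries, without tests. The plasma cell list, of which 9 of 11 markers were counted, 8 passed the filter and none of the 9 was at 0 in all cows, moved with the members (0.74, and 0.52 without replicates 12 and 13). Its summed level was 1039 to 1916 CPM in the high group and 1008 to 2237 CPM in the low group, with 2237 in replicate 12 and 1611 in replicate 13. *JCHAIN*, which joins secreted antibodies, had its highest value in replicate 12 (759 CPM, median of all cows 292), as did *MZB1* (250 CPM, median 74.6), a chaperone of antibody assembly. In replicate 13 these were 386 and 191 CPM. Others of the list did not share this in replicate 13, where *DERL3* had 64.6 CPM (median 76.9) and *POU2AF1* 205 CPM (median 212), and *FKBP11* had a correlation of 0.14 with the members. These markers were picked from the list after their values were seen.

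The list of stem and progenitor markers, with 5 of 6 counted, 4 tested and none of the 5 at 0 in all cows, moved the opposite way (-0.85, and -0.65 without replicates 12 and 13). Its sum was 38.0 to 54.0 CPM in the high group and 29.9 to 54.5 CPM in the low group, with replicates 12 and 13 at 29.9 and 30.0. The growth factor receptor *KIT*, one of its markers, had 5.68 CPM in replicate 12 and 6.13 in replicate 13, where the median of all cows was 9.68, though replicate 1 of the high group had 5.82 as well. T cell markers (10 of 10 tested) had a correlation of 0.39 with the members, B cell markers (9 of 10) 0.12, cytotoxic and NK markers (10 of 10) 0.10, neutrophil markers (7 of 10) -0.17, platelet markers (9 of 10) -0.12 and erythroid markers (9 of 14) -0.40. Without replicates 12 and 13 these were, in the same order, 0.47, 0.12, 0.66, -0.49, -0.11 and -0.04. For cytotoxic and NK markers the correlation was 0.79 within the high group and -0.03 within the low group. Monocyte markers (9 of 10) had -0.54, eosinophil markers (3 of 8) -0.52 and markers of neutrophil precursors (4 of 10) -0.57, and without replicates 12 and 13 these 3 were -0.36, -0.20 and -0.21. In replicate 13 the T cell sum was the highest of all cows (5107 CPM), and in replicate 12 it was the lowest of the low group (3239 CPM), so this sum set both cows apart from each other. The mean score of the T cell list was 0.28 in replicate 13, 0.27 in replicate 11 and -0.17 in replicate 12. *CD3G* and *TRAT1* went the other way, with 95.2 and 38.5 CPM in replicate 13 and 100 and 43.6 CPM in replicate 12. Sequencing depth had a correlation of -0.10 with the members. The part of the makeup of the blood in these differences was not tested.

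**Figure D5:**
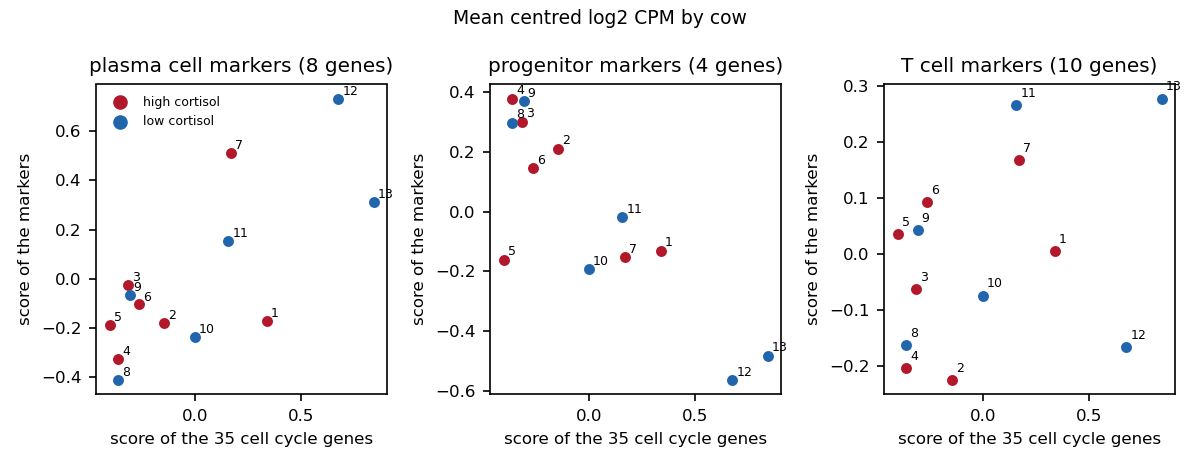
Score of plasma cell markers (8 genes), progenitor markers (4 genes) and T cell markers (10 genes) against the score of the 35 members in each of the 13 cows, all as mean centred log2 CPM, numbered by replicate and coloured by group. Replicates 12 and 13 of the low group, at the right, lie high for plasma cell markers and low for progenitor markers, and apart from each other for T cell markers.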

How the data were processed

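Whole blood RNA-Seq counts of 13 cows were analysed, grouped by the sample labels. The deposited values are counts, whole numbers of reads per gene name that the authors did not normalize. Per the file headers, these come from featureCounts 1.4.6-p3 with the UMD3.1 gene models of Ensembl release 88 and no option for strand, and the folder of the alignments has goat in its name. In all 13 tables the animal number in the header differs from that in the name of the table, so the link from each table to its cow, and thus its group, rests on the sample records alone. The methods of the study and the submitters' processing notes name STAR 2.7.3, Subread 1.6.5 and ARS-UCD1.2 instead. Positions are on UMD3.1, and the exon length is that of the deposited tables. The unnamed entry, 13.9% to 16.7% of the counts, was left out. No pair of libraries was identical.

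CPM after TMM scaling, log2 CPM (prior count 2) and the quasi-likelihood test (robust) came from edgeR 4.0.16 (R 4.3.3). Genes with low counts were dropped by filterByExpr (at least 10 counts, 15 in total), with Benjamini-Hochberg adjustment over all genes. Standard errors were derived from the log2 fold change and its F statistic (change over root F). The scripts were checked on simulated counts. The alternatives were RLE and upper-quartile factors, DESeq2 1.42.0, limma-voom 3.58.1, other filters, a haemoglobin covariate, a fit that is not robust and each cow left out. A count of 0, which no member had, would allow up to 3 counts (0.107 to 0.272 CPM, counting error only).

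The members, lists and tests were chosen with earlier results of these data known. Full values are given for the 4 most and the 2 least abundant members, *MKI67*, *TOP2A* and *PCNA*, the 4 members with the smallest p and the genes of the cell cycle lists at an unadjusted p below 0.05. Values of other members and markers were named after they were seen. Sequences of promoters and proteins were not used here.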

Additional observations from a re-analysis of the deposited data

How the results depend on the processing

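The number of members at an adjusted p of 0.05 was 0 in every fit run, also at an adjusted p of 0.1, with between 0 and 11 members at an unadjusted p below 0.05. That number was 4 over all cows with edgeR. DESeq2 gave 6 and limma-voom 1, a haemoglobin covariate left 0, and without a single cow it lay between 0 and 11. Without replicates 12 and 13 of the low group together, a choice made after the data were seen, it was 0, 14 members had a negative log2 fold change and the median over the mitotic members was 0.0608. In the same fit 20 members went from a negative to a positive log2 fold change, among them, of those described in full, *MCM7* (0.0197), *UBE2C* (0.0870), *ASPM* (0.0654) and *TOP2A* (0.14). Both cows were the highest for the members, which fixes the direction of this move. That of *CENPE* lay between -0.0913 and 0.20 without a single cow, and 31 to 35 members had a negative value. The correlation of replication and mitotic scores was 0.868 as a Spearman value and 0.865 without both cows, and the median pairwise correlation of the members fell to 0.526 without them. The median log2 fold change of the members was -0.334 in the main fit. It was -0.336 with RLE factors, -0.317 with upper-quartile factors, and -0.330 and -0.327 with the looser and the stricter filter. DESeq2 gave -0.338, limma-voom -0.250 and the haemoglobin covariate -0.160. No paired analysis was made because the groups are different cows and the labels give no pairing. For members with 30 counts in a cow, such as *CENPE*, counting error limits the precision.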

Other observations

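The 35 members did not all follow a single pattern. The first principal component of their log2 CPM held 74.7% of the variance and placed replicates 13 and 12 of the low group at its upper end (5.26 and 4.26, next replicate 1 of the high group at 2.06). The second held 13.4% and placed replicate 4 of the high group at 2.43 and replicate 5 of the high group at -1.80. *CENPE*, *CDK1*, *NCAPG* and *CHEK1* had the highest weights on the second component, and *FOXM1*, *CDC20*, *AURKB* and *PLK1* the lowest. In replicate 4, *CDK1* was the highest of all 13 cows and *CENPE* and *CHEK1* were the second highest, while *CDC20*, *PLK1*, *FOXM1*, *UBE2C* and *MKI67* were the lowest of all cows. *NCAPG* did not share the high values there, with a centred log2 CPM of -0.14. *CDK1* and *PLK1*, both kinases that act at the entry into mitosis, had a Pearson correlation of -0.11 over the 13 cows, and *PLK1* and *CHEK1* of -0.16, where the median over all pairs of members was 0.74. Both values include replicate 4, where centred log2 CPM was 0.92 for *CDK1*, 0.43 for *CHEK1* and -0.99 for *PLK1*. They were not computed without that cow, so they do not show that these genes part in the other cows. The median over all pairs of members was 0.79 without replicate 4, where leaving out any single cow gave 0.66 to 0.79. Replicate 4 had a depth of 14298265 counts, while its group spanned 12198355 to 23709740. These genes were singled out after their values were seen.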
